A study of Mus musculus with 139 samples.

Results

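Cytosolic tRNA genes are listed in this mouse small RNA atlas as numbered rows of class tRNA, and the 267 rows with a summed count of at least 1000 over all libraries are described here. They were chosen from 377 tRNA rows in a table of 6114 small RNA rows. Of the other tRNA rows, 79 had fewer than 1000 counts but at least 1, and 31 had none. The 267 rows held 99.99% of the tRNA counts and all 267 passed the filter on low counts. Just outside the threshold stood tRNA_row_149 with 975 counts and tRNA_row_2003 with 979, and just inside it tRNA_row_172 with 1047 and tRNA_row_91 with 1056. The choice used the sum over all libraries, so a row high in a single tissue could pass through that tissue; 259 of the 267 rows also reached 1000 counts without the intestine libraries, 261 without bone marrow and 260 without spleen. Rows are written as tRNA_row and the number, and the amino acid, anticodon, position and sequence behind each number were not analysed here.

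Small RNA was sequenced from 11 tissues of 14 wild-type adult mice of the inbred strain C57BL/6J at 3 months of age; the labels name no treatment. Of 134 libraries, testis gave 3. Intestine, pancreas and bone marrow gave 12 apiece, lung, liver and heart 13, and spleen, muscle, kidney and brain 14. Animals 1 to 10 were female and animals 11 to 14 male by the column names. Libraries of the females were read in pool N467 (liver, spleen, kidney, pancreas, lung) or pool N469 (brain, muscle, intestine, heart, bone marrow), and those of the males in pool N541, so that pool, sex and the set of animals cannot be told apart within these tissues. For each testis column the labels hold a sample of pool N541 at 3 months and another with no pool or age under the same title. The testis libraries were treated as pool N541, which is an assumption. The tissues are whole organs, in which fewer cells of a type and less RNA per cell cannot be told apart.

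Transfer RNAs carry amino acids to the ribosome and are made by RNA polymerase III from many gene copies, some of them identical in mature sequence. Their stable fold and base modifications hinder adapter ligation and reverse transcription, so libraries of short RNA hold largely tRNA fragments and the tRNAs that can be copied. Fragments cut in the anticodon loop by angiogenin and related nucleases accumulate under stress, and 5′ fragments are known from blood and blood-forming tissues. The comparisons below ask whether intestine, bone marrow and spleen moved all tRNA rows together or single rows.

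The libraries held 10255 to 34095704 counts (median 6327550), of which 143 to 14369796 were in tRNA rows (median 395561). Pancreas was shallowest, with 313 to 53621 tRNA counts per library, and 4 libraries under 1000 tRNA counts are left out of the shares given per tissue. The library labelled Pancreas 11, with 1821 tRNA counts, carried 148810 CPM (the usual depth-scaled unit, a count relative to the library total) of the intestinal epithelium miRNAs Mir192, Mir194-1, Mir194-2 and Mir215; it is named beside ranges that it sets. In intestine, all 4 of these miRNAs were higher than in the mean of the other tissues. So were all 4 lymphocyte and myeloid miRNAs (Mir142, Mir150, Mir155, Mir223) in spleen and all 3 measured erythroid miRNAs (Mir144, Mir451a, Mir486) in bone marrow. The lists do not mark a single tissue. All 3 erythroid miRNAs were also higher in heart, and 3 of the 4 lymphocyte and myeloid miRNAs in bone marrow. Liver and kidney each had 3 of the 4 intestinal epithelium miRNAs higher, with a median sum of 140750 CPM in liver. Row lengths are not given, so rows are compared as counts or shares and not per length.

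Many of the rows were not independent measurements. Of 15312 pairs of rows with at least 100 counts each in 20 or more libraries, 142 pairs kept a count ratio so steady over libraries that its log2 value had a standard deviation below 0.15. Joining such pairs left 200 groups: 22 groups of 2 to 8 rows, which took up 89 rows, and rows that stood alone. The largest group by counts held 7 rows (tRNA_row_1487, tRNA_row_1007, tRNA_row_114, tRNA_row_323, tRNA_row_461, tRNA_row_72 and tRNA_row_328) with 76879011 counts in all, and its most and least counted rows differed only 1.31-fold. Its linked pairs had standard deviations from 0.028 to 0.119. Steady ratios were seen in the data and then used to group rows; whether reads that match several rows were counted at each of them is not given in the sources used here. A group is called below by its most counted row.

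The 7-row tRNA_row_1487 group was the main content of the tRNA fraction in 10 of the 11 tissues. Its mean share of the tRNA total was 78.6 ± 1.59% in testis (SD, n = 3), 58.8 ± 23.05% in kidney (n = 14), 56.04 ± 19.6% in lung (n = 13), 55.4 ± 22.05% in muscle (n = 14), 53.8 ± 17.1% in heart (n = 13), 53.4 ± 34.3% in liver (n = 12), 47.3 ± 16.8% in bone marrow (n = 12), 44.3 ± 21.9% in brain (n = 13), 43.8 ± 26.97% in spleen (n = 14) and 37.6 ± 17.8% in intestine (n = 12). From kidney to intestine, neighbours in this order lay closer together than the spread within either tissue. Pancreas stood apart at 5.95 ± 4.15% (n = 10), from 0.403% to 12.4%. For tRNA_row_1487 itself the pancreas mean was 0.969 ± 0.682% of the tRNA total, and its share there was lower than the mean of the other tissues by edgeR's test (log2 fold change -2.93 ± 0.44, standard error; adjusted p = 8.16e-09). The pancreas share of tRNA_row_1487 spanned 0.0700% to 2.0%, which overlapped the lowest liver and spleen libraries (0.143% and 0.464%).

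The same 7 rows differed widely between animals of a tissue, as the plot of their summed share shows. In spleen they held between 2.81% and 78.2% of the tRNA total with a median of 43.9%. The 4 spleens of pool N541 held 71.3% to 78.2% and the other 10 held 2.81% to 65.5%, without overlap. Bone marrow had the same order, with 64.3% to 78.6% in 3 libraries of pool N541 and 26.3% to 52.5% in the other 9. In intestine the 2 libraries of pool N541 held 44.5% and 71.0% and the other 10 held 9.82% to 56.2%. Over all tissues but testis, the group was higher in pool N541 by 0.72 ± 0.21 on the log2 scale (edgeR's quasi-likelihood test, adjusted p = 0.003), which is under the fold threshold for a call. Of the 200 groups, 3 were called higher and 94 lower in pool N541 (background 2.18% and 34.1% of all rows tested), and for 39 the difference depended on the tissue (background 16.6%). These rows are part of the denominator of every share of the tRNA total given below.

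**Figure D1:**
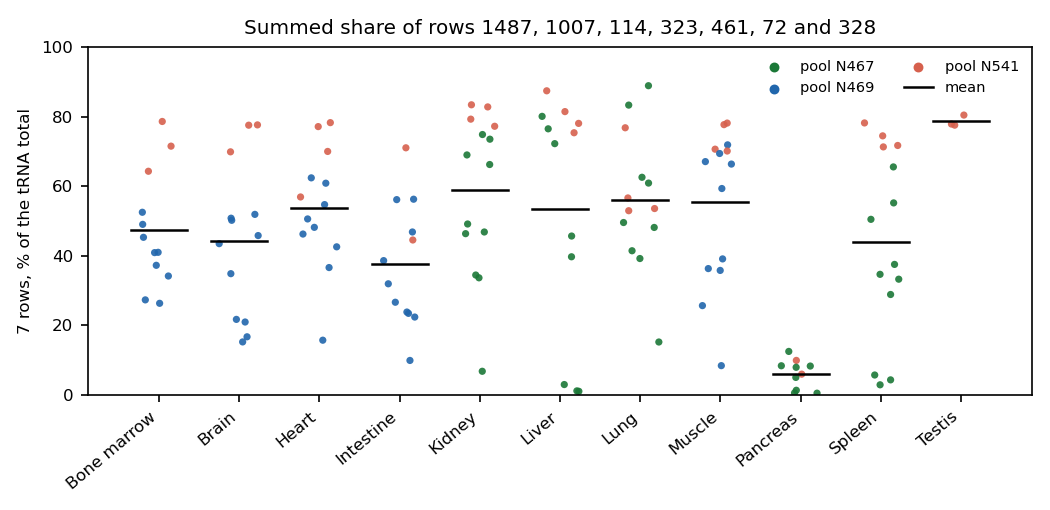
Summed share of the 7 rows of the tRNA_row_1487 group in percent of the tRNA total of a library (vertical axis, 0 to 100), by tissue; each point is a library of at least 1000 tRNA counts, coloured by pool, and black lines are tissue means. Pancreas lies between 0.403% and 12.4%, and the red points of pool N541 stand at 71.3% to 78.2% in spleen above the green points at 2.81% to 65.5%; testis is drawn as pool N541.

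As a whole, the tRNA rows took a larger share of the small RNA counts in intestine than in the other organs. They held 5.46% to 92.7% of all counts in the 12 intestine libraries with a median of 36.7%, and the 122 other libraries had a mean of 8.73% (difference 32.9 points; permutation test, adjusted p = 1.1e-04 over 11 tissues). Intestine libraries were spread over nearly the whole scale and overlapped the other tissues, in which the highest library was a lung with 51.7%. Bone marrow had 11.5% to 28.6% with a median of 17.2% against a mean of 11.0% elsewhere (permutation test, adjusted p = 0.173). Compared within animals, bone marrow was higher by 7.38 points and in 11 of 12 animals (exact sign-flip test, adjusted p = 0.0115). Spleen had 4.08% to 21.96% with a median of 10.9%, and differed from the rest by 0.907 points (permutation test, adjusted p = 0.870). The sign of the spleen difference was not stable: it was -0.454 in animals 1 to 10 alone and -0.438 with each steady-ratio group entered once, and 0.178 without Spleen 14 and 1.55 without Spleen 9.

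The intestine libraries of both pools overlapped in tRNA share. The 10 intestine libraries of pool N469 had a mean tRNA share of 46.8 ± 33.7% and the 2 of pool N541 had 9.05% and 22.3%, inside the range of the other 10. Within pool N541 alone the difference from other tissues was 7.28 points (permutation test, adjusted p = 0.419). Intestine 6, 5, 9 and 10 stood highest with 92.7%, 88.7%, 77.2% and 63.7%; without them the difference was 13.4 points (permutation test, adjusted p = 0.00781). The acinar miRNAs Mir216a, Mir216b, Mir216c and Mir217, which mark pancreas, summed to 45.2, 61.7, 157 and 129 CPM in these 4 libraries and to 388 CPM in Intestine 1, which had 8.73% tRNA. In the other 7 intestine libraries they summed to at most 1.29 CPM, and in pancreas to 585 CPM in the library labelled Pancreas 11 and to between 3549 and 21790 CPM in the others. Their part in the intestine result was not tested.

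**Figure D2:**
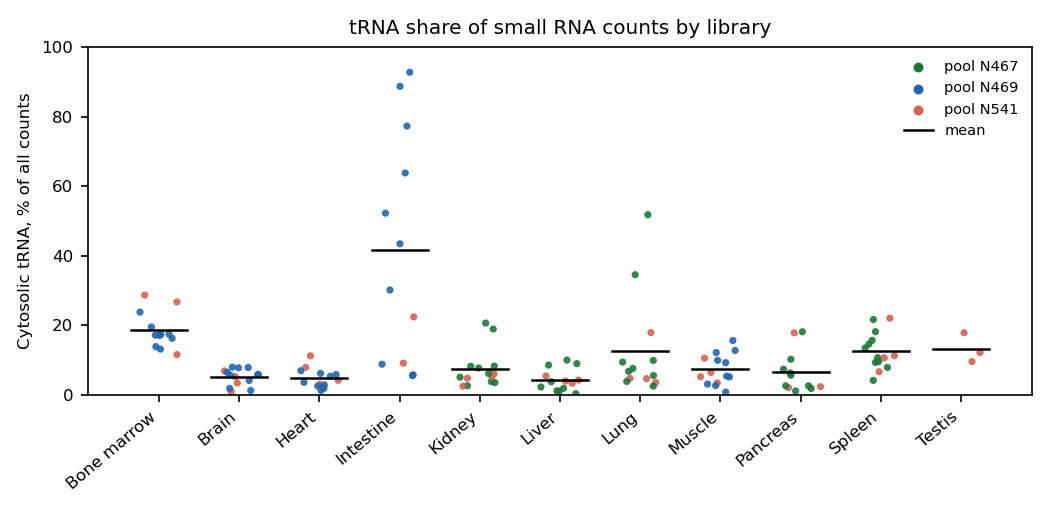
Cytosolic tRNA rows in percent of all small RNA counts of a library (vertical axis, 0 to 100), by tissue; each point is a library coloured by pool and black lines are tissue means. Intestine runs from 5.46% to 92.7%, bone marrow from 11.5% to 28.6% and spleen from 4.08% to 21.96%.

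In intestine nearly the whole set of rows rose against all small RNA. Of the 267 rows, 226 were higher than in the mean of the other 10 tissues and 1 was lower (edgeR's quasi-likelihood test with TMM scaling, adjusted p below 0.05 over 1268 rows tested and a log2 fold change of at least 1), where 34.7% of all rows tested were higher and 10% lower. The median log2 fold change of the 267 rows was 3.13, with an interquartile range from 1.51 to 4.19, against 0.22 for all rows tested. The fold changes of 249 rows were above 0. With unscaled library totals 169 rows were higher and 4 lower, and with DESeq2 size factors 244 and 1. Here and below, counts under alternatives are given without the share of all rows tested that was called. A shift of the whole table is therefore not separated in them from a change of the tRNA rows. Without Intestine 5, 6, 9 and 10 the counts were 152 and 2, and in pool N541 alone, where 245 of the 267 rows could be tested, they were 70 and 6.

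Intestine did not move all rows by the same factor. With the tRNA total of each library as the denominator, which cancels a change common to all rows, 33 rows were higher and 82 lower (background 5.36% and 41.7% of all rows tested). Rows outside the tRNA class move on this scale with the tRNA total itself, and their median was -1.93 in intestine. Backgrounds given on this scale throughout are therefore no baseline for the number of tRNA rows called. The 267 tRNA rows had a median of -0.35 with an interquartile range from -1.37 to 0.13. All 33 rows with a higher share were also among the 226 that rose against all small RNA, as were 46 of the 82 with a lower share, so these 46 rose less than the tRNA total did. With scaling factors computed from the tRNA rows the counts were 57 higher and 52 lower, and with the 7 rows of the tRNA_row_1487 group left out of the total they were 19 and 92. With the rows of each steady-ratio group summed, 18 of 200 groups were higher and 71 lower. Without Intestine 5, 6, 9 and 10 the shares of 17 rows were higher and of 43 lower, and in pool N541 alone of 11 and 14.

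**Figure D3:**
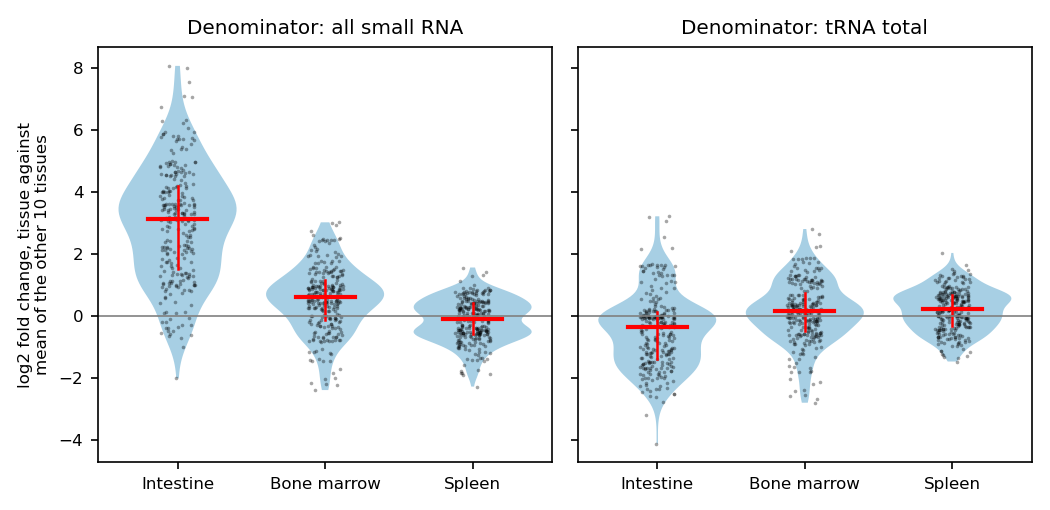
Log2 fold change of each of the 267 rows (points; violins show their distribution) in intestine, bone marrow and spleen against the mean of the other 10 tissues, with all small RNA (left) and the tRNA total (right) as the denominator; red bars are the median and the interquartile range. Intestine is centred at 3.13 on the left and at -0.35 on the right.

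The row that gained most weight in intestine was tRNA_row_1496. It held 0.0959% to 4.24% of the tRNA total in the 12 intestine libraries with a median of 0.340%, and 0% to 0.659% with a median of 0.0515% in the 118 others. All 12 intestine libraries lay above the median of the others and 5 lay above the highest of them, which was the library labelled Pancreas 11. The log2 fold change of the share of tRNA_row_1496 was 3.22 ± 0.45 (edgeR's test, adjusted p = 4.00e-09), 2.55 in pool N541 alone and 4.38 in animals 1 to 10 alone. In CPM tRNA_row_1496 ran from 54.5 to 39275 in intestine with a median of 1183.

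The tRNA_row_1195 group of 8 rows, which includes tRNA_row_469, tRNA_row_2594 and tRNA_row_2205, also gained weight. It held 5.89% to 35.9% of the tRNA total in intestine with a median of 7.48% (summed group, log2 fold change 1.63 ± 0.31; edgeR's test, adjusted p = 5.86e-06). The highest library was Intestine 13 of pool N541, and the library labelled Pancreas 11 held 19.1%. For tRNA_row_2594 the intestine libraries had 0.878% to 6.46% with a median of 1.13% against a median of 0.435% elsewhere. All 12 lay above that median, and the log2 fold change was 1.66 ± 0.30 (edgeR's test, adjusted p = 2.37e-06), or 1.07 without Intestine 13 (adjusted p = 0.00795). The values for tRNA_row_469 and tRNA_row_2205 were 1.69 ± 0.29 and 1.64 ± 0.29. In pool N541 alone the 3 rows had values from 2.64 to 2.87 and in animals 1 to 10 alone from 1.24 to 1.57. Pool N541 has 2 intestine libraries, so its values rest largely on Intestine 13. Intestine 14 held 5.90% in the group, less than Muscle 13 of the same pool with 8.43%.

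The tRNA_row_999 group, with tRNA_row_1001 and tRNA_row_1003, varied widely between intestine libraries. It held 1.15% to 53.4% of the intestine tRNA total with a median of 9.54%; Intestine 5 had 53.4%, Intestine 2 had 30.1%, Intestine 1 had 26.9% and Intestine 8 had 1.15%. For tRNA_row_999 the share was 0.459% to 20.9% with a median of 3.74%, against 0.0703% to 12.4% with a median of 0.563% in the other libraries. The ranges overlapped, and 11 of 12 intestine libraries lay above the other libraries' median. The log2 fold change of tRNA_row_999 was 1.65 ± 0.40 (edgeR's test, adjusted p = 2.34e-04), and 0.83 in pool N541 alone, where it did not pass (adjusted p = 0.366). In pancreas the share of tRNA_row_999 was higher still, at 7.31 ± 3.37% (n = 10; log2 fold change 3.13 ± 0.36, edgeR's adjusted p = 2.71e-13). Acinar miRNA counts of the intestine libraries are given above; their relation to the tRNA_row_999 group was not tested.

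Of the 82 rows with a lower share in intestine, tRNA_row_3015 is the one named by the rule on size. In intestine tRNA_row_3015 held 0.00173% to 0.271% of the tRNA total with a median of 0.0133%, against a median of 0.658% and a highest value of 13.9% in the other libraries. All 12 intestine libraries lay below the others' median, and the lowest, Intestine 13, had 3 counts of the row. The share of tRNA_row_3015 had a log2 fold change of -4.11 ± 0.51 (edgeR's test, adjusted p = 4.24e-11), -4.54 in pool N541 alone. It was also the 1 row called lower against all small RNA (-2.0 ± 0.33, adjusted p = 9.35e-08), at 3.86 to 148 CPM in intestine with a median of 77.6.

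The share of tRNA_row_3015 also varied among the other tissues and between the pools. Its mean share was 3.39 ± 3.59% in brain (n = 13), 2.40 ± 2.33% in heart (n = 13), 1.96 ± 2.14% in lung (n = 13) and 1.95 ± 1.54% in muscle (n = 14), and these 4 did not differ beyond their spread. Lower means stood in liver (0.983 ± 1.09%), pancreas (0.781 ± 0.525%), spleen (0.533 ± 0.618%) and kidney (0.408 ± 0.365%). Bone marrow had 0.109 ± 0.0626%, intestine 0.0514 ± 0.0822% and testis 0.0372 ± 0.0128%. In pool N541 the share of tRNA_row_3015 was lower, with a log2 difference of -3.14 ± 0.31 over all tissues but testis (edgeR's test, adjusted p = 1.56e-16), so the low rank of testis cannot be told apart from the pool. Within pool N541 the means were 0.0054% in intestine (n = 2), 0.0136% in bone marrow (n = 3) and 0.035% in kidney (n = 4), and 0.582% in brain (n = 3). In the other pools they were 0.0606% in intestine (n = 10), 0.14% in bone marrow (n = 9) and 4.23% in brain (n = 10). Spread within brain and heart was about as large as the mean, so single libraries, such as Brain 3 with 13.9%, lay far above the rest of their tissue.

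Several large groups had a share in intestine that did not pass the test. The share of the 7-row tRNA_row_1487 group had a log2 fold change of -0.02 ± 0.39 there, the tRNA_row_1193 group -0.07 ± 0.34 and the tRNA_row_2831 group -0.01 ± 0.40, with adjusted p = 1 for each by edgeR's test. Against all small RNA, tRNA_row_1487 rose by 3.11 ± 0.53 (edgeR's adjusted p = 1.72e-07), from 3126 to 36856 CPM with a median of 14208 in intestine. This value was 2.29 without Intestine 5 and 2.498 without Intestine 6. In pool N541 alone it was 1.24 higher and did not pass (adjusted p = 0.162). Over the 12 intestine libraries the shares of the 9 largest groups were set against the tRNA share of all counts. Only the tRNA_row_1324 group, with tRNA_row_1583, passed (Pearson's r = 0.75, permutation adjusted p = 0.0417; Spearman's rho = 0.78, permutation adjusted p = 0.033; n = 12; 9 relations). Without the 2 libraries farthest from the median tRNA share r was 0.68, and within pool N469 it was 0.83 (n = 10). The tRNA_row_1324 group held 0.335% to 3.52% of the intestine tRNA total.

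Bone marrow changed some rows and not others. Against all small RNA 78 rows were higher and 16 lower, 29.2% and 5.99% of the rows (background 28.9% and 18.6%). The part called higher was thus near that of all rows tested, and the part called lower was below it. The median log2 fold change was 0.61 with an interquartile range from -0.12 to 1.16, against 0.27 for all rows tested. With unscaled library totals 182 rows were higher and 5 lower, and with DESeq2 size factors 157 and 7. Unscaled totals moved the median log2 fold change of all rows tested from 0.27 to 1.11 in bone marrow, from 0.22 to -0.31 in intestine and from -0.03 to 0.71 in spleen. As shares of the tRNA total 52 rows were higher and 24 lower (background 14.7% and 22.7%), with a median of 0.16 and an interquartile range from -0.49 to 0.75. All 52 were among the 78 that rose against all small RNA. With factors from the tRNA rows the counts were 38 and 43. Without Bone marrow 5 to 9, they were 26 and 46, and in pool N541 alone 39 and 9. Bone marrow 5 to 9 held 0.368% to 0.561% of their counts in small nuclear RNA and the other 7 bone marrow libraries 0.0252% to 0.0771%; its part in the result was not tested.

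The tRNA_row_1193 group of 8 rows, among them tRNA_row_485, tRNA_row_1006 and tRNA_row_1539, was the group with most weight in bone marrow after the 7 rows. It held 3.35% to 34.1% of the bone marrow tRNA total with a median of 24.0%, a mean of 20.99% (n = 12) against 2.55% to 11.2% as the means of the other tissues. As a summed group its share was 1.15 ± 0.33 higher on the log2 scale (edgeR's test, adjusted p = 0.00323). The 9 libraries of pool N469 held 20.1% to 34.1% and the 3 of pool N541 held 3.35% to 6.95%, without overlap. For tRNA_row_1193 the log2 fold change was 1.14 ± 0.31 (edgeR's adjusted p = 0.00171), 1.70 in animals 1 to 10 alone and 0.50 in pool N541 alone, where it did not pass (adjusted p = 0.501). The library labelled Pancreas 11 held 43.4% in this group, more than any bone marrow library. Rows tRNA_row_485, tRNA_row_1006 and tRNA_row_1539 had log2 fold changes between 1.18 and 1.19 (edgeR's adjusted p from 0.0015 to 0.00165), and none passed in pool N541 alone. With factors from the tRNA rows tRNA_row_1193 (0.96) and tRNA_row_1006 (0.9998) fell under the fold threshold.

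Row tRNA_row_136 followed the same order. It held 0.408% to 3.54% of the bone marrow tRNA total with a median of 2.52%, against a median of 0.758% elsewhere. Of 12 bone marrow libraries, 11 lay above that median and Bone marrow 14 below it. Its log2 fold change was 1.31 ± 0.31 (edgeR's test, adjusted p = 2.42e-04), and 0.19 in pool N541 alone (adjusted p = 1). Row tRNA_row_86 is the 1 named row of those that gained weight in bone marrow with a larger value in pool N541 alone than overall. It held 0.107% to 0.907% with a median of 0.641% against a median of 0.141% elsewhere, and 9 of 12 libraries lay above that median. The mean share of tRNA_row_86 was higher in spleen (0.589%) than in bone marrow (0.526%), and libraries of other tissues reached 1.985%. Its log2 fold change was 1.63 ± 0.53 (edgeR's adjusted p = 0.00925), 2.03 in pool N541 alone and 1.197 without Bone marrow 5 to 9 (adjusted p = 0.115), where the call was lost. Within pool N541, bone marrow did not stand highest for the tRNA_row_86 group of 6 rows. That group held 0.425% to 2.497% in the bone marrow libraries of this pool. Lung 11, 12 and 13 held 5.71%, 5.62% and 7.61%, and Lung 14 held 1.25%. Heart 13 held 3.36%. The other libraries of pool N541 outside bone marrow held less than 1.25%.

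**Figure D4:**
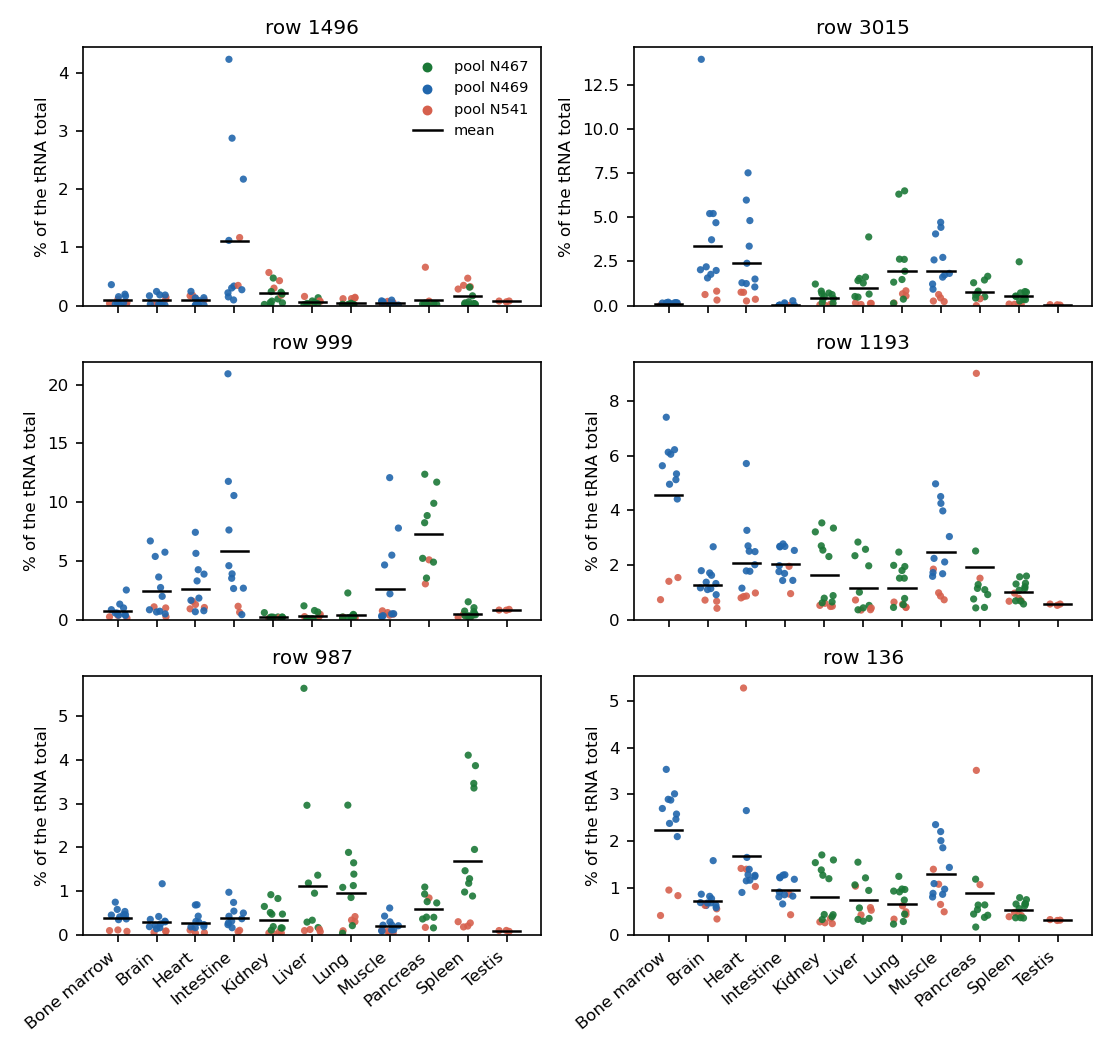
Share of 6 named rows in percent of the tRNA total of a library (vertical axes start at 0 and differ between panels), by tissue; each point is a library of at least 1000 tRNA counts coloured by pool and black lines are tissue means. Row tRNA_row_1496 reaches 4.24% in intestine, tRNA_row_3015 is low in intestine and bone marrow in both pools and in testis, which is drawn as pool N541, and in bone marrow tRNA_row_1193 and tRNA_row_136 are lower in pool N541 than in pool N469.

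Rows that lost weight in bone marrow were led by tRNA_row_3015. Its share was 0.00818% to 0.187% with a median of 0.131%, below the others' median of 0.658% in all 12 libraries (log2 fold change -2.79 ± 0.47; edgeR's test, adjusted p = 2.85e-07), and the value was -3.09 in pool N541 alone. Row tRNA_row_1375 had a median of 0.0594% against 0.222% elsewhere (-1.79 ± 0.62, edgeR's adjusted p = 0.0142), with 10 of 12 libraries below that median, and did not pass in pool N541 alone (adjusted p = 0.232). The 3 rows of the tRNA_row_999 group, which gained weight in intestine, had log2 fold changes of the share from -1.33 ± 0.43 to -1.39 ± 0.43 in bone marrow (edgeR's adjusted p from 0.0043 to 0.00776). Outside pool N541 the group's mean share in bone marrow (2.38%) was above spleen (1.64%), lung (1.34%), liver (1.07%) and kidney (0.673%). It was below brain, heart, muscle, intestine (17.6%) and pancreas (20.7%). Within pool N541 the bone marrow mean (0.722%) was above lung (0.517%) and kidney (0.413%) only. Only 8 of 12 libraries lay below the others' median for these 3 rows, and they passed neither in pool N541 alone (adjusted p from 0.0909 to 0.119) nor in animals 1 to 10 alone (adjusted p from 0.171 to 0.178).

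Spleen had the fewest called rows of the 3 organs on both scales. Against all small RNA 5 rows were higher and 23 lower, 1.87% and 8.61% of the rows (background 20.4% and 14.4%). The median log2 fold change was -0.11 with an interquartile range from -0.58 to 0.42, against -0.03 for all rows tested. This balance rested on the scaling and the libraries: with unscaled library totals 98 rows were higher and 0 lower, without Testis 11 the counts were 14 and 10, without Testis 12 they were 13 and 10, and in pool N541 alone 55 and 7. As shares of the tRNA total 24 rows were higher and 10 lower (background 22.8% and 11.4%), with a median of 0.23 and an interquartile range from -0.31 to 0.68. With factors from the tRNA rows the counts were 13 and 19, and with the 7 rows left out of the total 14 and 17. With animals 1 to 10 alone 59 rows had a higher and 11 a lower share.

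The rows that gained most weight in spleen were tRNA_row_987 and tRNA_row_2828. The share of tRNA_row_987 ran from 0.175% to 4.11% in 14 spleens with a median of 1.23%, and from 0.0176% to 5.64% with a median of 0.289% in the 116 other libraries. The ranges overlapped: 11 of 14 spleens lay above the others' median, and the highest library of all was a liver. The log2 fold change of tRNA_row_987 was 1.66 ± 0.34 (edgeR's test, adjusted p = 3.11e-05), 1.21 in pool N541 alone and 2.09 in animals 1 to 10 alone. For tRNA_row_2828 it was 1.51 ± 0.33 (adjusted p = 7.63e-05), for tRNA_row_173 1.32 ± 0.33 (adjusted p = 7.61e-04) and for tRNA_row_1538 1.11 ± 0.31 (adjusted p = 0.00247), all by edgeR's test. The first 2 and tRNA_row_173 passed in pool N541 alone with values from 1.17 to 1.22, and tRNA_row_1538 did not (0.87, adjusted p = 0.0864). The mean share of tRNA_row_173 was higher in liver (1.28%) than in spleen (1.06%). Libraries of other tissues reached 8.52% for tRNA_row_173, against 2.64% at most in spleen. In CPM tRNA_row_987 stood at 175 to 3683 in spleen with a median of 1546, and at 87.8 to 6181 with a median of 1010 in intestine. None of the 10 rows with a lower share in spleen averaged 0.5% or more of the tRNA total over the other tissues.

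The tRNA_row_1627 group of 5 rows had its highest tissue mean in spleen, at 7.91 ± 8.22% (n = 14), but this was not larger than its spread. It ran from 1.30% to 27.9% with a median of 4.27%, led by Spleen 2, and kidney had 7.31 ± 9.31% (n = 14). The summed group was 0.72 ± 0.36 higher in spleen on the log2 scale (edgeR's test, adjusted p = 0.119). Spleens of pool N541 held 1.30% to 1.69% and those of the other pool 1.59% to 27.9%. Within pool N541 the spleens lay above all brain, testis, liver, muscle, lung and heart libraries (at most 1.26%). They overlapped bone marrow, kidney, intestine and pancreas. Rows of this group made up 5 of the 7 rows whose share did not pass the test for a difference among the 11 tissues: tRNA_row_1627, tRNA_row_3143, tRNA_row_470, tRNA_row_127 and tRNA_row_131. The other two were tRNA_row_2317 and tRNA_row_1196. The share of the other 260 rows differed among tissues (edgeR's F test, adjusted p below 0.05), as did 99.2% of all rows tested.

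Bone marrow and spleen, which both hold many blood cells, were also set against each other. As shares of the tRNA total 12 rows were higher in bone marrow and 14 higher in spleen (background 5.28% and 17.1%), 9.74% of the rows in all. With the 7 rows left out of the total the counts were 18 and 12. Without the filter on low counts they were 2 and 3, and with the animal as a block 14 and 11. Leaving out any of 15 single libraries also turned the balance. With animals 1 to 10 alone 28 rows were higher in bone marrow and 50 in spleen, and in pool N541 alone 18 and 17. In animals 1 to 10 bone marrow was read in pool N469 and spleen in pool N467, so organ and pool cannot be told apart there. For tRNA_row_1193 the difference was 1.42 ± 0.47 in favour of bone marrow (edgeR's adjusted p = 0.0183) and for tRNA_row_3015 -2.12 ± 0.58 (edgeR's adjusted p = 0.00498). For tRNA_row_1487 it was 0.27 ± 0.50 (edgeR's adjusted p = 0.761). Within pool N541 the tRNA_row_1193 group held 3.35% to 6.95% in bone marrow and 3.11% to 4.34% in spleen, which overlapped. With factors from the tRNA rows 30 and 29 rows differed, and of the 200 summed groups 5 were higher in bone marrow and 6 in spleen.

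The evenness of the rows did not pass the test in the 3 organs. The 10 most counted rows of a library held 54.6 ± 11.04% of the tRNA total in intestine, 57.6 ± 13.2% in bone marrow and 56.96 ± 16.6% in spleen, against 62.3%, 62.0% and 62.1% in the other libraries (permutation tests, adjusted p = 0.217, 0.475 and 0.425). The effective number of rows, the exponential of the Shannon entropy of the shares, was 43.5 ± 13.5, 42.6 ± 15.3 and 44.8 ± 17.7 (permutation tests, adjusted p = 0.555, 0.571 and 0.359). These permutation tests had no pool term, while evenness differed between pools within each organ. The top 10 rows held 67.8% in pool N541 and 52.0% outside it in intestine, 75.5% and 51.6% in bone marrow, and 77.7% and 48.7% in spleen. Pancreas, with little of the tRNA_row_1487 group, was the 1 tissue that passed: 46.2 ± 9.98% in the top 10 rows (permutation adjusted p = 0.0055) and 58.3 ± 18.6 effective rows (permutation adjusted p = 0.00132).

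The highest mean share of a row fell in pancreas for 91 of the 267 rows, brain for 47, liver for 29, bone marrow for 28, intestine for 24, spleen for 23 and testis for 12. The lowest fell in testis for 154, kidney for 44 and pancreas for 21. Pancreas libraries had a median of 3448.5 tRNA counts, the lowest of the tissues, so single counts weigh heavily in their shares. Some of the highest means there were small, such as 0.0027% for tRNA_row_463 and 0.0046% for tRNA_row_91. Pancreas also held little of the 7-row tRNA_row_1487 group (means 7.85% in pool N541 and 5.48% in the other pools), which leaves more of the tRNA total to other rows. The part of either in the pancreas count was not tested. The testis count cannot be told apart from the pool: 94 of 200 groups had a lower share in pool N541, and within that pool the 7-row tRNA_row_1487 group held 80.6% in kidney and 80.5% in liver against 78.6% in testis. With testis left out, the highest mean fell in pancreas for 72 rows within pool N541 and for 84 within the other pools, and in brain for 47 and 40. The lowest then fell in pancreas for 105 and kidney for 56 within pool N541, where pancreas has 2 libraries and one is Pancreas 11, and in intestine for 60 and kidney for 56 within the other pools. Among the other large groups, the tRNA_row_464 group of 2 rows had 8.40 ± 10.6% in brain (n = 13) and at most 3.87% as a mean elsewhere. Brain was not set apart within pool N541. The group's means there were 1.33% in brain, 1.40% in testis, 1.31% in pancreas and 1.29% in muscle. In the other pools they were 10.5% in brain and 4.51% in pancreas. For tRNA_row_464 the brain share ran from 0.346% to 18.0% with a median of 2.37% and was 3.44 ± 0.40 higher on the log2 scale (edgeR's adjusted p = 4.47e-14).

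**Figure D5:**
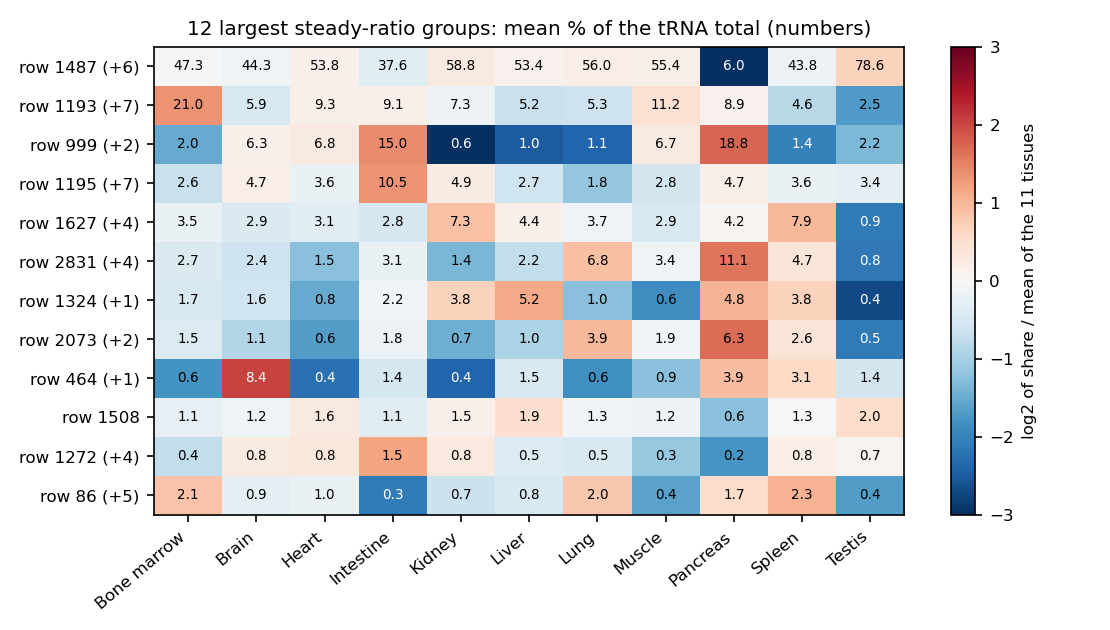
Mean percent of the tRNA total (numbers in the cells) of the 12 largest steady-ratio groups, named by their most counted row with the number of further rows in brackets, in each tissue; colour is log2 of the share over the group's mean of the 11 tissues. The tRNA_row_1487 group is at 5.95% in pancreas and 78.6% in testis, the tRNA_row_1193 group peaks in bone marrow, the tRNA_row_1195 group in intestine and the tRNA_row_464 group in brain. Within pool N541 the mean of the tRNA_row_464 group is 1.33% in brain and 1.40% in testis.

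Mitochondrial tRNAs and other products of RNA polymerase III were counted beside the tRNA rows. Of the 22 mitochondrial tRNAs, made by another polymerase, 10 were higher and 1 lower in intestine (with unscaled library totals 2 and 2), 0 higher and 21 lower in bone marrow (0 and 17) and 0 higher and 21 lower in spleen (0 and 20). Of 6 measured small RNAs that RNA polymerase III also makes (the Y RNAs Rny1 and Rny3, the vault RNA Vaultrc5, the 7SK gene Rn7sk and the 7SL genes Rn7s1 and Rn7s2), 2 were higher and 1 lower in intestine (with unscaled library totals 0 and 2). In bone marrow 3 were higher and 0 lower (4 and 0), and in spleen 1 was higher and 3 lower (1 and 0). The 7SL gene Rn7s1, whose RNA is part of the signal recognition particle, was 1.46 ± 0.32 higher in intestine (edgeR's adjusted p = 5.16e-05) and the Y RNA Rny1 was lower (-1.59 ± 0.26, edgeR's adjusted p = 3.18e-08), where the tRNA rows had a median of 3.13.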

How the data were processed

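Small RNA of 134 libraries was analysed from 1 deposited table of raw counts per gene. Per the labels' protocols, RNA was extracted from about 100 mg of tissue with a miRNeasy kit, made into libraries with the TruSeq small RNA kit, selected by size on a gel and read as single 75-base reads. The authors' counts were made with STAR 2.5.1 and featureCounts on mm10 (GRCm38), per the submitters' processing notes; how reads matching several tRNA copies were counted is not given in the sources used here. Of 139 samples in the series 5 were not analysed here. Columns were matched to samples by name, 131 to single samples and 3 of testis to the group only; the latter entered the model as pool N541, an assumption, and were left out in an alternative.

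The members and lists were chosen with earlier results of these data known. The main test was the quasi-likelihood test of edgeR 4.0.16 in R 4.3.3, on 1268 rows that passed a filter at a minimum count of 10, with tissue and pool in the model and each tissue set against the mean of the other 10. Fits of animals 1 to 10 alone had no pool term, as each tissue of these animals lies in a single pool. A call needed a Benjamini-Hochberg adjusted p below 0.05 over all rows tested and a log2 fold change of at least 1. The denominators were library totals with TMM factors (0.199 to 5.88), and the summed tRNA counts of a library without further scaling. Shares of the tRNA total used the 130 libraries with at least 1000 tRNA counts. Single values were compared with permutation tests of 100000 resamples (exact in small groups), adjusted over 11 tissues, whose smallest p is 1e-05. These tests had no pool term. Named rows were the 10 with the largest mean share and, for each of the 3 organs, up to 5 called rows in each direction with the largest fold change of the share and a mean share of at least 0.5%; other rows and groups named were chosen after their values were seen. Scripts were tested on simulated data.

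Libraries of 1 animal share that animal. Deviations from tissue means correlated at 0.112 on average between libraries of the same animal (521 pairs) and at -0.0141 between other animals (3885 pairs), and the animal numbers come from the labels.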

Additional observations from a re-analysis of the deposited data

Results flagged for a closer look

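For 5 of the 9 largest steady-ratio groups (39 of all 200), the difference between pool N541 and the other pools in share of the tRNA total was not the same in all tissues (edgeR's test of the interaction of tissue and animal set, testis left out, adjusted over all rows tested). The tRNA_row_1193 group had adjusted p = 0.000206: in bone marrow it held 3.35% to 6.95% in the 3 libraries of pool N541 and 20.1% to 34.1% in the other 9. The tRNA_row_1195 group had adjusted p = 0.0299 by edgeR, with 5.90% and 35.9% in the 2 intestine libraries of pool N541 and 5.89% to 14.1% in the other 10. For the tRNA_row_2831 group edgeR gave adjusted p = 0.00252, with means of 8.02% against 6.27% in lung and 0.254% against 1.87% in kidney, pool N541 first. For the tRNA_row_2073 group edgeR gave adjusted p = 0.00228, with 4.68% against 3.59% in lung and 0.111% against 0.974% in kidney. For the tRNA_row_464 group edgeR gave adjusted p = 0.0181, and in brain it held 0.691% to 2.28% in pool N541 and 0.902% to 36.0% in the other libraries. Sex, animal set and pool cannot be told apart.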

How the results depend on the processing

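Of 1176 alternative values of 40 results on single rows, 1133 kept direction and call, 43 lost the call and 0 reversed. Only results called in the main test were counted, and many alternatives left out 1 library. In pool N541 alone 13 of the 40 results lost the call, and in animals 1 to 10 alone 3 did. Counts of called rows moved more than the results on single rows. Each is given as the total with rows higher and lower, without the share of all rows tested that was called. Against all small RNA, intestine had 76 (70 and 6) in pool N541 alone. Bone marrow had 155 (148 and 7) with DESeq2's Wald test, 164 (157 and 7) with DESeq2 size factors and 187 (182 and 5) with unscaled totals. Spleen had 98 (98 and 0) with unscaled totals, 54 (33 and 21) without the pool term, 62 (55 and 7) in pool N541 alone and 70 (25 and 45) in animals 1 to 10 alone. In share of the tRNA total, factors from the tRNA rows gave 109 (57 and 52) in intestine, 81 (38 and 43) in bone marrow, 32 (13 and 19) in spleen and 59 (30 and 29) for bone marrow against spleen. Leaving the 7 rows out of the total gave 31 (14 and 17) in spleen and 30 (18 and 12) between the latter. Pool N541 alone gave 25 (11 and 14) in intestine, 48 (39 and 9) in bone marrow and 35 (18 and 17) between marrow and spleen. Animals 1 to 10 alone gave 70 (59 and 11) in spleen and 78 (28 and 50) between marrow (pool N469) and spleen (pool N467). Without the pool term these were 67 (54 and 13) and 61 (28 and 33). Intestine had 60 (17 and 43) without Intestine 5, 6, 9 and 10. Without Bone marrow 5 to 9, bone marrow had 72 (26 and 46) and marrow against spleen 43 (8 and 35). Marrow against spleen also had 5 (2 and 3) without the low-count filter, 21 (12 and 9) in libraries of at least 100000 counts, 11 (5 and 6) with steady-ratio rows summed, and 25 (14 and 11) with the animal as a replicate block. The block changed no other of these counts by over 1.5 times or in balance. The cause of these changes was not tested.

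The tRNA share of all counts in bone marrow differed by 14.6 points in pool N541 alone (exact permutation, adjusted p = 0.0205), 9.84 without Intestine 5, 6, 9 and 10 (permutation, adjusted p = 0.00781) and 7.38 with the animal as a replicate block (exact sign-flip, adjusted p = 0.0115). Intestine differed by 7.28 in pool N541 alone, and spleen by -0.454 in animals 1 to 10 alone and -0.438 with each steady-ratio group entered once. The share of the 10 largest rows differed by 3.36 points in bone marrow without Bone marrow 5 to 9 and 1.58 in spleen in pool N541 alone. Effective rows differed by -0.0818 and -1.32 in bone marrow and spleen in pool N541 alone, and by -6.98 in bone marrow without Bone marrow 5 to 9.

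Leaving out 1 library at a time, called rows ranged over 186 to 235 in intestine, 80 to 106 in bone marrow and 23 to 32 in spleen against all small RNA, and over 102 to 141, 72 to 85 and 29 to 38 in share. Marrow against spleen ranged over 18 to 31; 15 omissions turned its balance. Without Testis 11 or Testis 12 spleen had 24 or 23; without all 3 testis libraries no count of called rows moved by over 1.5 times or turned its balance. The tRNA share differed by 28.2 to 36.2, 6.56 to 8.12 and 0.178 to 1.55 points in intestine, bone marrow and spleen. Depth limits pancreas most.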
